A study of Homo sapiens with 3 samples.

Results

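The genes described here are 41 that make, desaturate, elongate, activate, store or burn fatty acids, among 60664 gene identifiers in the count table. They were matched by name in the table. No measured value enters the rule, but the set was drawn up with earlier results of these data known. The libraries come from Caco-2, a human colon carcinoma line whose cells take on features of small intestinal absorptive cells and which the labels call wild type. One library was made for each of 3 groups. In the DSS+polydatin group, cells were given 30 µM polydatin for 2 h and then polydatin with 3% dextran sulfate sodium (DSS) for 8 h. The DSS group had 3% DSS for 8 h, and the control group was kept in a standard incubator. DSS is a sulfated polysaccharide that damages the gut lining and serves in rodent models of colitis. Polydatin is resveratrol carrying a glucose. The title names the question, which is whether polydatin protects against DSS through the NRF2, SLC7A11 and GPX4 route that limits ferroptosis, a form of cell death driven by peroxidised membrane lipids.

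Fatty acids are built in the cytosol from acetyl-CoA, which ACLY makes from citrate and ACSS2 from acetate. ACACA and ACACB carboxylate it, FASN assembles palmitate, and desaturases and elongases then shape the chain. Acyl-CoA synthetases activate fatty acids for use, and the GPAM, AGPAT, lipin and DGAT enzymes build them stepwise into triglyceride, which enterocytes export in lipoproteins or keep in droplets. CPT1A lets long-chain acyl groups into mitochondria for beta-oxidation, and malonyl-CoA, the product of ACACA and ACACB, inhibits it. SREBP-1, encoded by SREBF1, drives many of the synthesis genes, and PPARα and PPARγ drive genes of oxidation and storage.

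Levels are in CPM, the usual depth-normalised unit of RNA-seq, which sets a count against its library's total, here after scaling by trimmed-mean-of-M (TMM) factors. Each ratio carries a 95% exact Clopper-Pearson interval in parentheses, which covers counting error only. A gene was called higher or lower where the ratio was at least 1.5-fold and its interval excluded 1. With 1 library per group there is no replicate check and no test of the conditions, so each ratio compares libraries. The DSS library enters the first and the second comparison, the control library the first and the third, and the DSS+polydatin library the second and the third. The ratios of a gene in these comparisons are therefore not independent. In bulk RNA, a change in the share of cells that express a gene and a change in RNA per cell cannot be told apart.

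Library totals were 16667622 counts for DSS+polydatin, 18825914 for DSS and 18695613 for control. Mitochondrially encoded transcripts held 4.34%, 4.77% and 5.31% of counts in the same order, and the 10 most abundant genes 5.67% to 6.19%. Of 12 intestinal epithelial markers, 10 reached a CPM of 1 in some library, with a summed CPM between 7912 and 9687. CDX1 had 0 counts, and KRT20 stayed below a CPM of 1. LGALS4 reached a CPM of 1 only in DSS+polydatin, with 25 counts there, 10 in DSS and 4 in control. Markers of other cell types summed to between 51.0 and 60.6 CPM for fibroblasts (4 of 6 reaching a CPM of 1), 13.5 to 24.9 for endothelium (2 of 4) and 3.36 to 7.99 for leukocytes (2 of 6). PTPRC and KDR were at 0 throughout, and COL1A2 and DCN had at most 3 counts in a library. Other markers on these lists were present, with COL1A1 and PECAM1 the highest of theirs. In DSS+polydatin, DSS and control, COL1A1 had 43.3, 37.8 and 39.7 CPM and PDGFRA 9.41, 10.04 and 18.83 CPM. PECAM1 had 9.52, 16.03 and 24.4 CPM in the same order, and VWF 3.9, 1.19 and 0.496 CPM. LYZ had 2.24, 4.48 and 0.771 CPM, and CD14 2.35, 3.45 and 2.59 CPM. Of 4 adipocyte markers, CIDEC alone reached a CPM of 1. The part of these markers in the results was not tested.

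Of the 41 genes, 40 were measured, meaning a CPM of at least 1 in some library. All 40 stood at a CPM of at least 5.01 in every library, the lowest being ELOVL4 in control. FABP2, which encodes the intestinal fatty acid binding protein of enterocytes, had 1 count in DSS+polydatin, 0 in DSS and 1 in control and was left out. The floor of 3 counts was 0.172, 0.162 and 0.165 CPM in these libraries.

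The promoters of 3 members are shown, picked by hand. Each gene was called higher in both DSS-treated libraries than in control. Each window held a motif read by a regulator of lipid genes or a common promoter motif. ACSS2 and PPARA also met this, each with a CCAAT box, and are not printed. FASN, DGAT1 and PNPLA3 were also called higher in both but had no promoter window to search. Each printed promoter is a RefSeq window on GRCh38.p14 from 250 bases before to 50 bases after the gene's start. It is written 5′ to 3′ on the gene's strand. Capitals mark the motif matches. SCD is at chr10:100346983-100347282 on the plus strand, with 2 CCAAT boxes. PNPLA2 is at chr11:818664-818963 on the plus strand, with a match to the sterol regulatory element TCACNCCAC, the type of site that SREBPs bind, on the opposite strand. LPIN2 is at chr18:3013095-3013394 on the minus strand, with an E-box, CACGTG.
SCD: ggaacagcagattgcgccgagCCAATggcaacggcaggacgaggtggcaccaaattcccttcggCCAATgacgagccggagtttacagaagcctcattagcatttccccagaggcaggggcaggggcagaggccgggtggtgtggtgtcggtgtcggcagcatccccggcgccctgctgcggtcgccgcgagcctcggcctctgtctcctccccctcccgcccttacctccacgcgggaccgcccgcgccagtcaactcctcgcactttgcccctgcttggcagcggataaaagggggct
PNPLA2: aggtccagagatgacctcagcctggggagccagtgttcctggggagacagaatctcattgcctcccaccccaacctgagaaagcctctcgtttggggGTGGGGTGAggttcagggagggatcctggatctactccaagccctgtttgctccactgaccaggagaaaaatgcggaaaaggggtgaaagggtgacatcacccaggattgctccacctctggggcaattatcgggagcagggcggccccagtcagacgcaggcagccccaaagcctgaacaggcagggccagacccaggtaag
LPIN2: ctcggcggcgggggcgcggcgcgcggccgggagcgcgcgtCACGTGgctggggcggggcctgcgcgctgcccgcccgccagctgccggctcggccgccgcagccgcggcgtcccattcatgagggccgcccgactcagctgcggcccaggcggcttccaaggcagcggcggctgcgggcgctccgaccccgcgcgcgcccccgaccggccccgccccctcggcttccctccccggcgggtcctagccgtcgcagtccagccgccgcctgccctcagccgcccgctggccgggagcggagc

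The promoter table held 58 windows for 36 of the members, and motifs were searched on both strands. It held none for FASN, DGAT1, DGAT2, LPIN3 and PNPLA3, so nothing is said of motifs there. The sterol regulatory element TCACNCCAC was in 2 member windows (3.45%), those of PNPLA2 and ACSL1, against 1.13% of all 35116 windows. An E-box was in 4 (6.9%) against 7.26%, those of ELOVL4, ELOVL5, LPIN2 and PLIN2. CCAAT was in 20 (34.5%) against 34.6%. The PPAR response element, the half-site AGGTCA repeated after a spacer of 1 base, was in none and in 0.0228% of all windows. None of these motifs holds another, and the matches in the printed windows do not overlap. These are matches of letters, with no statement on binding.

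In the DSS library, 12 members were called higher than in control: the regulator genes PPARA and PPARG, the acetyl-CoA genes ACLY and ACSS2, the synthase FASN, the desaturase SCD, the assembly genes LPIN1, LPIN2 and DGAT1, the lipase genes PNPLA2 and PNPLA3, and the mitochondrial entry gene CPT1A. ACACB and DGAT2 were called lower. No elongase or ACSL gene was called in that comparison. The calls amount to 30% of the 40 measured members higher and 5% lower. Over all 14792 measured genes, 9.45% were called higher and 5.81% lower, so the share called lower was near the background. Among genes with a CPM of at least 10 in some library, as in all measured members but ELOVL4, these shares were 7.43% and 4.34%. Calls either way took in 15.3% of all genes. By counting error alone, 26 of the 40 measured members had an interval above 1, against 26.1% of all genes. An interval below 1 was found for 8 of the 40, against 27.2% of all genes. Intervals narrow as counts rise, and these shares are not matched for level. The median log2 ratio was 0.33 for the members and -0.01 for all measured genes. Summed over the members, the level was 8505 CPM in DSS against 5809 CPM in control. SCD alone made up 42.8% of that sum in DSS and 33.7% in control, and without it the sums were 4867 and 3853 CPM.

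DSS+polydatin against DSS gave far fewer calls. Only ACSL1 was called higher (2.5% of members, against 5.39% of all genes). No member was called lower (against 2.6% of all genes), where 7.98% of all genes were called either way. At a CPM of at least 10, 2.35% of all genes were called higher and 2.32% lower. The members' share called higher was near that background. The median log2 ratio was 0.09, against -0.01 over all genes, and 29 of the 40 members lay within 1.2-fold. By counting error alone, 17 of the 40 members had an interval above 1, against 20.2% of all genes, and 8 of the 40 an interval below 1, against 25.8%. DSS+polydatin against control gave 15 members called higher (37.5%, against 16% of all genes) and 2 lower (5%, against 12.4%). At a CPM of at least 10 these shares of all genes were 12.6% and 13%. Calls either way took in 28.4% of all genes. Intervals lay above 1 for 27 of the 40 members, against 30.7% of all genes, and below 1 for 10 of the 40, against 34.4%. The median there was 0.46, against -0.02 over all genes. In 28 of the 40 members the DSS level lay between the levels of DSS+polydatin and control. In 22 of these DSS+polydatin was the highest library and in 6 the lowest. The shares of all genes with such an order, or within 1.2-fold, were not computed, so these counts have no background.

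**Figure D1:**
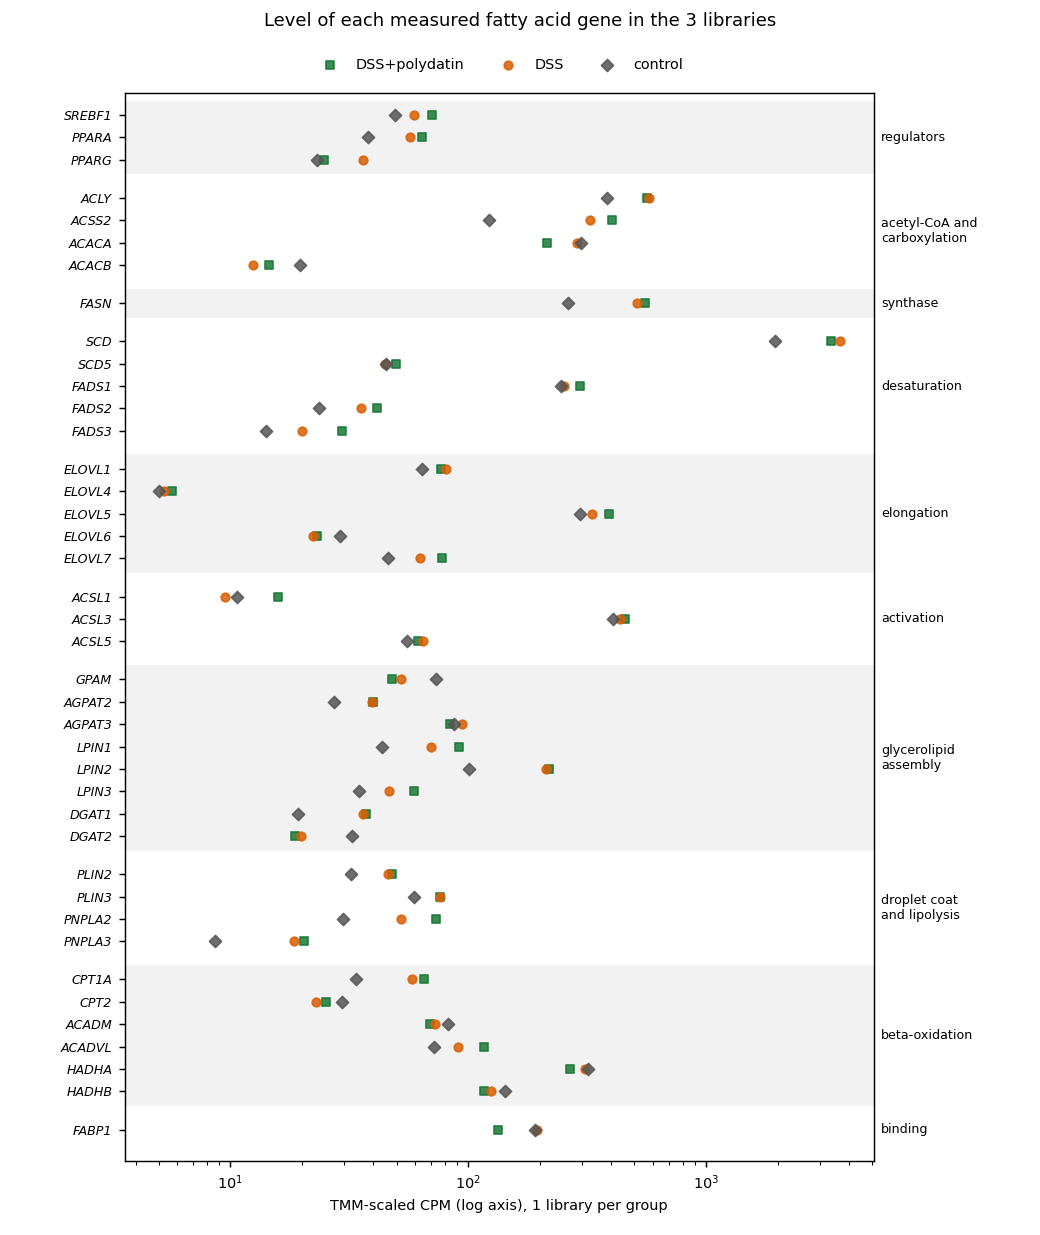
TMM-scaled CPM on a log axis for the 40 measured members, 1 point per library, with genes grouped by their step in fatty acid metabolism. SCD has its points at 3334 CPM in DSS+polydatin, 3638 CPM in DSS and 1956 CPM in control, and for most synthesis and lipin genes the control point lies left of the other 2.

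**Figure D2:**
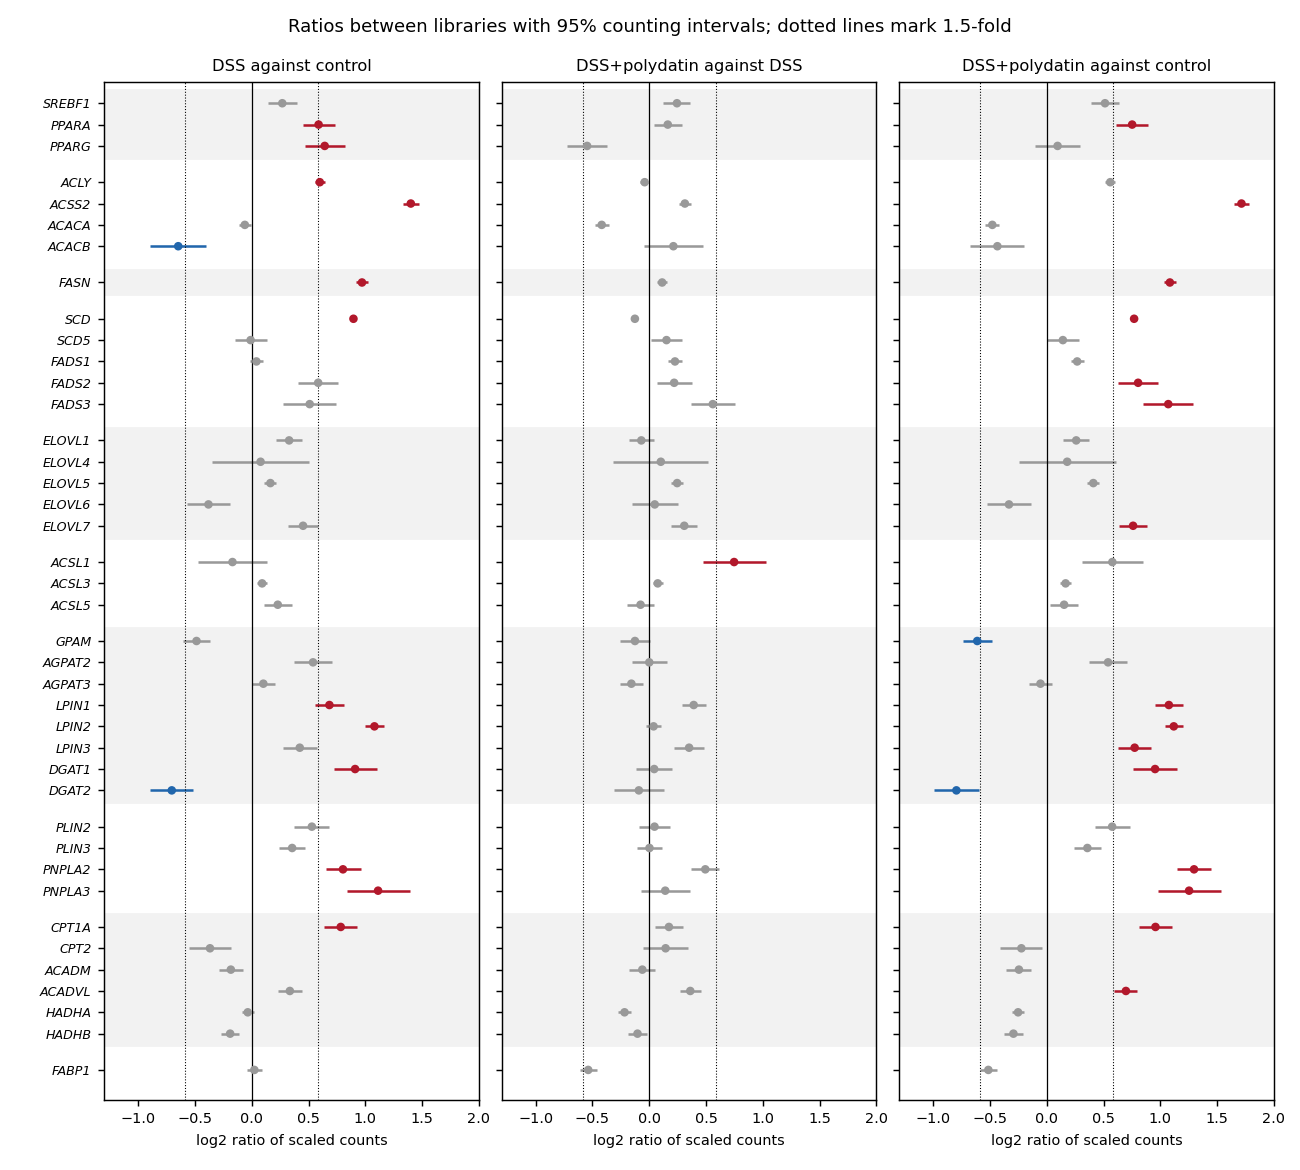
Log2 ratios of scaled counts for the 40 measured members in the 3 comparisons. Horizontal bars are 95% counting intervals, dotted lines mark 1.5-fold, red marks members called higher and blue members called lower. ACSL1 is the only coloured point in the middle panel, against 12 red and 2 blue points on the left and 15 red and 2 blue on the right.

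Among the regulators, SREBF1 had 70.3 CPM in DSS+polydatin, 59.3 CPM in DSS and 49.2 CPM in control. Its ratios were 1.2 for DSS against control (1.10 to 1.32), 1.18 for DSS+polydatin against DSS (1.09 to 1.29) and 1.43 for DSS+polydatin against control (1.31 to 1.56), all short of a call. After correction for GC content and length across all genes the log2 ratios to control turned, to -0.03 in place of 0.27 for DSS and to -0.01 in place of 0.51 for DSS+polydatin. Its exons share 556 bases with RAI1 on the other strand, and with the strand setting unknown those reads cannot be assigned to a gene. PPARA, the PPARα gene, had 63.9 CPM in DSS+polydatin, 57.1 CPM in DSS and 37.9 CPM in control. It was called higher in DSS than in control at 1.5-fold (1.36 to 1.66), just past the threshold, and in DSS+polydatin than in control at 1.68-fold (1.53 to 1.85). The DSS call was lost with DESeq2 size factors, at a log2 ratio of 0.57, with thinned libraries (0.56) and after correction for GC content and length (0.53). PPARG, the PPARγ gene, stood apart from the other regulators in having its highest level in DSS. It had 24.8 CPM in DSS+polydatin, 36.3 CPM in DSS and 23.2 CPM in control. Its DSS ratio to control was 1.56 (1.38 to 1.77), called higher, while DSS+polydatin was at 0.685 times DSS (0.605 to 0.774), not past the threshold. DSS+polydatin and control were within counting error of each other, with a ratio of 1.07 (0.932 to 1.22).

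RNA of the acetyl-CoA supply genes was higher in the DSS library at both entry points, citrate and acetate, with ACLY just past the threshold. Acetyl-CoA itself was not measured. ACSS2 (chromosome 20, 34872146 to 34927962, GRCh38), the cytosolic acetyl-CoA synthetase, had 7027 counts in DSS+polydatin, 6007 in DSS and 2231 in control, or 403, 324 and 123 CPM. It was 2.64-fold higher in DSS than in control (2.51 to 2.77) and 3.28-fold higher in DSS+polydatin than in control (3.13 to 3.44), the highest member in each. DSS+polydatin was at 1.24 times DSS (1.2 to 1.29). ACLY (chromosome 17, 41866908 to 41930542), ATP citrate lyase, had 562 CPM in DSS+polydatin, 578 CPM in DSS and 381 CPM in control. The DSS level was 1.51-fold that of control (1.47 to 1.56), called higher, and the DSS+polydatin level 1.47-fold (1.43 to 1.52), not called. The DSS call was lost with DESeq2 size factors, at a log2 ratio of 0.58, and after correction for GC content and length, at 0.52.

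The carboxylases did not follow. ACACA, the main cytosolic acetyl-CoA carboxylase, had 214 CPM in DSS+polydatin, 287 CPM in DSS and 299 CPM in control. DSS was at 0.959 times control (0.923 to 0.996), and DSS+polydatin at 0.748 times DSS (0.717 to 0.780), so the library with polydatin was the lowest. ACACB, the isoform at the mitochondrial surface, had 14.5 CPM in DSS+polydatin, 12.5 CPM in DSS and 19.6 CPM in control. It was called lower in DSS than in control at 0.639 times (0.539 to 0.756), and stood at 0.740 times control in DSS+polydatin (0.627 to 0.872). After correction for GC content and length, ACACA and ACACB were both called lower in DSS+polydatin than in control. The log2 ratios were -0.60 in place of -0.48 for ACACA and -0.72 in place of -0.43 for ACACB.

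FASN (chromosome 17, 82078333 to 82098332), fatty acid synthase, had 9677 counts in DSS+polydatin, 9504 in DSS and 4754 in control, or 555, 513 and 262 CPM. It was 1.96-fold higher in DSS than in control (1.89 to 2.03) and 2.12-fold higher in DSS+polydatin than in control (2.05 to 2.20), with 1.08 between the libraries given DSS (1.052 to 1.11). After subtraction of a smooth dependence on transcript GC content and length across all genes, the log2 ratio for DSS against control was 0.57 in place of 0.97 and that for DSS+polydatin against control 0.40 in place of 1.08, neither of them called. The log2 ratio of DSS+polydatin to DSS turned from 0.11 to -0.16 under the same correction.

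RNA of the desaturase genes was dominated by SCD (chromosome 10, 100347124 to 100364834), the stearoyl-CoA desaturase that makes oleate and palmitoleate. Per kb of annotated exon its level ranked number 24 among measured genes in DSS+polydatin, 29 in DSS and 57 in control. It had 58130 counts in DSS+polydatin, 67407 in DSS and 35522 in control. The DSS level was 1.86-fold higher than control (1.84 to 1.88). The DSS+polydatin level was at 0.916 times DSS (0.906 to 0.926) and 1.70-fold higher than control (1.68 to 1.73). SCD5, its paralogue, held 1.84%, 1.52% and 2.81% of the CPM per kb of the pair in DSS+polydatin, DSS and control, and had 49.9, 44.9 and 45.2 CPM.

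The FADS genes lie side by side on chromosome 11. FADS1 and FADS2 desaturate polyunsaturated fatty acids, the lipids most open to peroxidation, and FADS3 is known to act on sphingoid bases. FADS1, the delta-5 desaturase, had 296 CPM in DSS+polydatin, 253 CPM in DSS and 246 CPM in control, and DSS+polydatin was at 1.2 times control (1.16 to 1.25). FADS2, the delta-6 desaturase, had 41.3 CPM in DSS+polydatin, 35.5 CPM in DSS and 23.7 CPM in control. It was called higher in DSS+polydatin than in control at 1.75-fold (1.55 to 1.97), and lay just under the threshold in DSS against control at 1.5 times (1.33 to 1.70). FADS3 had 29.6 CPM in DSS+polydatin, 20.1 CPM in DSS and 14.1 CPM in control, so that the 3 libraries were set apart in that order. Its ratio was 1.47 for DSS+polydatin against DSS (1.29 to 1.69), just short of a call, and 2.10 for DSS+polydatin against control (1.80 to 2.45). FADS1 and FADS2 share 490 exon bases on opposite strands, and FADS1 had the more counts of the pair, 5164 against 721 in DSS+polydatin. After the same GC and length correction, the FADS2 log2 ratio for DSS+polydatin against control was 0.44 in place of 0.80 and no longer called.

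Elongation genes differed less. ELOVL5, which lengthens polyunsaturated chains, had 392 CPM in DSS+polydatin, 331 CPM in DSS and 295 CPM in control, and held 66.2%, 63.2% and 65.3% of the CPM per kb of the 5 ELOVL genes. ELOVL7, an elongase of long saturated chains, had 77.6 CPM in DSS+polydatin, 62.7 CPM in DSS and 45.8 CPM in control. It was the elongase that passed the threshold, at 1.69-fold higher in DSS+polydatin than in control (1.55 to 1.85). After correction for GC content and length, ELOVL7 was also called higher in DSS than in control, at a log2 ratio of 0.60 in place of 0.45. ELOVL6, which turns palmitate into stearate, went the other way, with 23.1 CPM in DSS+polydatin, 22.3 CPM in DSS and 29 CPM in control, and a DSS ratio to control of 0.768 (0.674 to 0.875). ELOVL1, an elongase of very long saturated chains, had 76.7, 80.5 and 64.1 CPM in DSS+polydatin, DSS and control. ELOVL4, which makes the very longest chains, stood at 5.68, 5.29 and 5.01 CPM with all intervals spanning 1.

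Among the acyl-CoA synthetases, ACSL1 (chromosome 4, 184755595 to 184826818) was the one member called between DSS+polydatin and DSS. It had 278 counts in DSS+polydatin, 176 in DSS and 194 in control, or 15.9, 9.5 and 10.7 CPM. DSS+polydatin held the highest level, called against DSS but not against control, where the ratio was 1.49 (1.24 to 1.80). The ratio was 1.68 for DSS+polydatin against DSS (1.38 to 2.04), and 0.889 for DSS against control (0.721 to 1.10). ACSL1 held only 3.17% of the CPM per kb of the 3 ACSL genes in DSS+polydatin, 1.97% in DSS and 2.40% in control. ACSL3, a synthetase of the endoplasmic reticulum and lipid droplets, held 78.7%, 78.1% and 79.2%, with 457 CPM in DSS+polydatin, 434 CPM in DSS and 407 CPM in control. ACSL5, an intestinal and mitochondrial form, had 61.5, 64.9 and 55.3 CPM in the same order.

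The triglyceride assembly genes split by step and by isoform. GPAM, the mitochondrial acyltransferase that starts the pathway, had 47.9 CPM in DSS+polydatin, 52.3 CPM in DSS and 73.2 CPM in control, and was called lower in DSS+polydatin than in control at 0.655 times (0.6 to 0.714). That call was lost with total-count scaling, at a log2 ratio of -0.50, and after correction for GC content and length, at -0.52. For AGPAT2, an acyltransferase of the next step, the libraries given DSS were alike at 39.6 CPM each, against 27.3 CPM in control, with ratios to control of 1.45 in DSS+polydatin (1.29 to 1.63) and 1.45 in DSS (1.29 to 1.63). After correction for GC content and length, the log2 ratio of DSS+polydatin to control was 0.00 in place of 0.54. AGPAT3 had 84.1, 93.8 and 87.4 CPM in DSS+polydatin, DSS and control.

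The lipins make diacylglycerol from phosphatidate, and all 3 were called higher in DSS+polydatin than in control, LPIN1 and LPIN2 also in DSS. LPIN2 (chromosome 18, 2916994 to 3013315), whose E-box window is printed above, had 218 CPM in DSS+polydatin, 213 CPM in DSS and 101 CPM in control. It was 2.11-fold higher in DSS than in control (2.00 to 2.24) and 1.03 times DSS in DSS+polydatin (0.982 to 1.07). LPIN1 had 91.2 CPM in DSS+polydatin, 69.5 CPM in DSS and 43.3 CPM in control, called higher than control in DSS at 1.61-fold (1.47 to 1.76) and in DSS+polydatin at 2.11-fold (1.93 to 2.30). LPIN3 had 59.4 CPM in DSS+polydatin, 46.6 CPM in DSS and 34.7 CPM in control, called higher in DSS+polydatin than in control at 1.71-fold (1.55 to 1.89), a call lost after correction for GC content and length, at a log2 ratio of 0.43. LPIN2 held 60.8%, 66.1% and 56.8% of the CPM per kb of the 3 lipin genes in DSS+polydatin, DSS and control.

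The genes of the last step, which encode 2 unrelated enzymes, showed opposite differences. DGAT1 had 37.2 CPM in DSS+polydatin, 36.1 CPM in DSS and 19.2 CPM in control, 1.88-fold higher in DSS than in control (1.65 to 2.14) and 1.94-fold in DSS+polydatin (1.70 to 2.21). DGAT2 (chromosome 11, 75759512 to 75801535) had 18.7 CPM in DSS+polydatin, 19.9 CPM in DSS and 32.4 CPM in control, called lower than control at 0.614 times in DSS (0.538 to 0.701) and 0.576 times in DSS+polydatin (0.502 to 0.661). Per kb of exon, DGAT1 thus held 79.2% of the pair in DSS+polydatin and 77.6% in DSS, against 53.1% in control. DGAT1 shares 139 exon bases with HSF1, which had 641, 701 and 512 counts. After the same GC and length correction, DGAT1 had a log2 ratio of 0.44 in place of 0.95 for DSS+polydatin against control and was not called there.

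**Figure D3:**
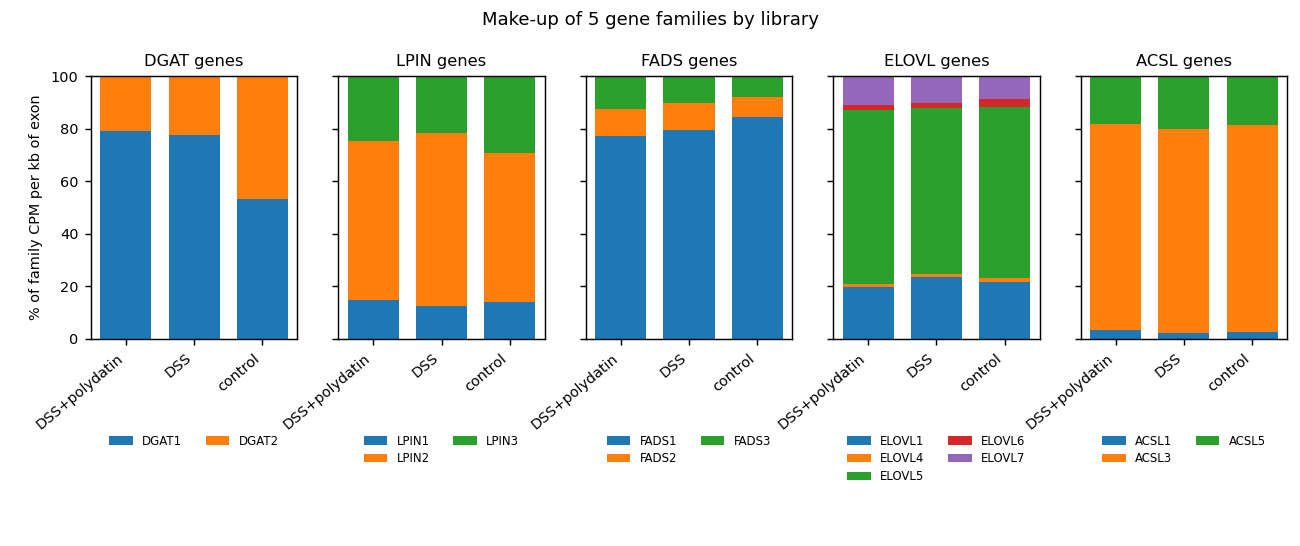
Stacked bars give each gene's percent of its family's CPM per kb of exon in DSS+polydatin, DSS and control, 1 library each. DGAT1 takes 79.2%, 77.6% and 53.1% of the DGAT pair, while ACSL3 and ELOVL5 keep the largest share of their families in each library.

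At the droplet, the coat protein genes PLIN2 and PLIN3 had 47.8 and 76.2 CPM in DSS+polydatin, 46.3 and 76.1 CPM in DSS and 32.1 and 59.5 CPM in control. Neither was called, with DSS ratios to control of 1.44 (1.30 to 1.61) for PLIN2 and 1.28 (1.18 to 1.39) for PLIN3. PNPLA2 (chromosome 11, 818902 to 825573), adipose triglyceride lipase, had 73.2 CPM in DSS+polydatin, 52.0 CPM in DSS and 29.8 CPM in control. The libraries were set apart in that order. It was called higher than control in DSS at 1.74-fold (1.57 to 1.94) and in DSS+polydatin at 2.46-fold (2.22 to 2.72), with 1.41 between them (1.29 to 1.53). After the same GC and length correction, the log2 ratio for DSS against control was 0.49 in place of 0.80 and no longer called. PNPLA3, a paralogue with lipase and acyltransferase activities, had 20.5 CPM in DSS+polydatin, 18.6 CPM in DSS and 8.59 CPM in control. DSS was 2.16-fold above control (1.78 to 2.63). PNPLA3 shares 148 exon bases on the same strand with SAMM50, which had 857 counts in DSS+polydatin, 1053 in DSS and 1144 in control.

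Of the 6 beta-oxidation members, CPT1A was called higher in DSS than in control, and CPT1A and ACADVL in DSS+polydatin than in control. CPT1A (chromosome 11, 68754620 to 68844410), the carnitine acyltransferase that controls entry, had 65.3 CPM in DSS+polydatin, 57.9 CPM in DSS and 33.6 CPM in control. It was called higher than control in DSS at 1.72-fold (1.56 to 1.90) and in DSS+polydatin at 1.94-fold (1.76 to 2.15). CPT2, its partner on the inner membrane, had 25.3 CPM in DSS+polydatin, 22.9 CPM in DSS and 29.5 CPM in control, and a DSS ratio to control of 0.775 (0.681 to 0.882). ACADVL, the very long chain dehydrogenase, had 117 CPM in DSS+polydatin, 90.9 CPM in DSS and 72.0 CPM in control, called higher in DSS+polydatin than in control at 1.62-fold (1.51 to 1.74), a call lost after the GC and length correction, at a log2 ratio of 0.42. ACADM, the medium chain dehydrogenase, had 69.4, 72.4 and 82.3 CPM in DSS+polydatin, DSS and control.

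HADHA and HADHB encode the alpha and beta subunits of the mitochondrial trifunctional protein and are transcribed away from each other. Their promoter windows share 194 bases on chromosome 2. HADHA had 267 CPM in DSS+polydatin, 310 CPM in DSS and 318 CPM in control, and HADHB had 116, 125 and 142 CPM. For both, DSS+polydatin was the lowest library, at 0.840 times control for HADHA (0.808 to 0.873) and 0.816 times for HADHB (0.770 to 0.865), short of a call. The summed level of the 6 beta-oxidation members was nearly level across libraries, at 660 CPM in DSS+polydatin, 679 CPM in DSS and 678 CPM in control. FABP1, the liver-type fatty acid binding protein that is also made by enterocytes, had 134 CPM in DSS+polydatin, 194 CPM in DSS and 191 CPM in control. DSS and control were within counting error, and DSS+polydatin was at 0.689 times DSS (0.654 to 0.726), not past the threshold.

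By step, DSS against control gave a median log2 ratio of 0.59 over the 3 regulators, 0.27 over the 4 genes of acetyl-CoA supply and carboxylation, 0.51 over the 5 desaturases and 0.16 over the 5 elongases. It was 0.09 over the 3 ACSL genes, 0.48 over the 8 assembly genes, 0.67 over the 4 droplet genes and -0.11 over the 6 beta-oxidation genes. For DSS+polydatin against DSS the same medians lay between 0.02, over the assembly genes, and 0.22, over the desaturases. For DSS+polydatin against control they ran from -0.23 over beta-oxidation to 0.91 over the droplet genes.

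Other genes of these pathways that are not members numbered 103, of which 78 were measured. In DSS against control 11 were called higher (14.1%) and 4 lower (5.13%), against 9.45% and 5.81% of all genes. In DSS+polydatin against DSS 3 were higher (3.85%) and 2 lower (2.56%), against 5.39% and 2.6% of all genes. In DSS+polydatin against control 16 were higher (20.5%) and 12 lower (15.4%), against 16% and 12.4%. Their median log2 ratios were 0.04, -0.04 and -0.05 in these comparisons.

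The highest of these genes in DSS against control was CREB3L3, a transcription factor of liver and intestine that acts on lipid genes, with 21.1 CPM in DSS+polydatin, 16 CPM in DSS and 3.63 CPM in control, and a DSS ratio of 4.40 (3.36 to 5.83). MGLL, which cleaves monoglycerides, had 58.8 CPM in DSS+polydatin, 53.4 CPM in DSS and 14.5 CPM in control, 3.69-fold higher in DSS than in control (3.22 to 4.24). MLXIPL, the ChREBP gene, which answers to sugar and drives synthesis genes, had 19.3 CPM in DSS+polydatin, 12.8 CPM in DSS and 4.02 CPM in control. It was called higher in DSS than in control at 3.20-fold (2.45 to 4.21) and in DSS+polydatin than in DSS at 1.5-fold (1.27 to 1.78). The call against DSS was lost with DESeq2 size factors, at a log2 ratio of 0.58, and after correction for GC content and length, at 0.38. Among the lowest was G0S2, an inhibitor of adipose triglyceride lipase, with 2.29 CPM in DSS+polydatin, 2.48 CPM in DSS and 7.43 CPM in control, 0.334 times control in DSS (0.234 to 0.470). MID1IP1, which promotes carboxylase polymerisation, was at 0.623 times control in DSS (0.560 to 0.692), and ACADSB, a branched and short chain dehydrogenase, at 0.642 times (0.584 to 0.705), the ACADSB call being lost after correction for GC content and length, at a log2 ratio of -0.53.

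Of the 10 measured droplet and lipolysis genes on that list, 5 were called higher and 2 lower in DSS against control, where 9.45% and 5.81% of all genes were. In DSS+polydatin against control 6 were higher and 2 lower, with 16% and 12.4% of all genes. Some of these calls rested on low counts. In DSS against control, a gene called higher had 38 counts against 18, and a gene called lower 33 against 58. In DSS+polydatin against control, a gene called higher had 38 counts against 16. Of 24 measured beta-oxidation genes, none was called higher and 1 lower in DSS against control, and none either way in DSS+polydatin against DSS. In DSS+polydatin against control 1 was higher and 6 were lower (25%), with 16% and 12.4% of all genes. Without a minimum fold, 12 of the 24 had an interval below 1 and 1 an interval above 1 in DSS+polydatin against DSS, with 25.8% and 20.2% of all genes. As above, intervals narrow as counts rise and these shares are not matched for level. ACAT1, a mitochondrial thiolase, had 94.3 CPM in DSS+polydatin against 185 CPM in control, 0.509 times (0.480 to 0.540). ACADSB was at 0.473 times control in DSS+polydatin (0.425 to 0.525). In DSS+polydatin against DSS, GPAT3, an acyltransferase of the endoplasmic reticulum, was called higher at 1.63-fold (1.31 to 2.02). PPARGC1B, a coactivator of nuclear receptors, was called lower, at 0.616 times DSS (0.515 to 0.736).

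**Figure D4:**
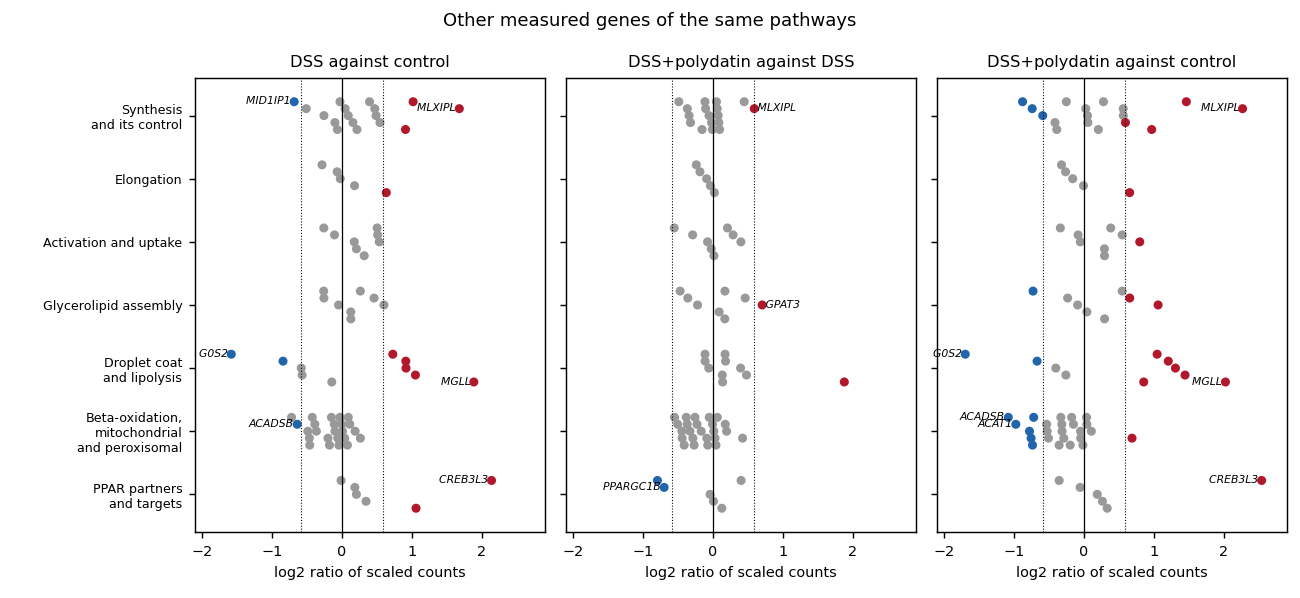
Log2 ratios of scaled counts of the 78 other measured pathway genes, grouped by pathway part, in the 3 comparisons. Red marks genes called higher, blue genes called lower, and dotted lines 1.5-fold; the beta-oxidation row has 6 blue points and 1 red point in the right-hand panel.

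The genes that hold SREBPs back or release them were looked at together, a choice made after their values were seen. INSIG1, which keeps SREBPs in the endoplasmic reticulum and is itself a target of them, had 296 CPM in DSS+polydatin, 217 CPM in DSS and 107 CPM in control, 2.02-fold higher in DSS than in control (1.92 to 2.14). INSIG2 had 65.8, 63.1 and 33.6 CPM in DSS+polydatin, DSS and control, and was 1.88-fold higher in DSS than in control (1.70 to 2.07). The SREBP-2 gene SREBF2 was at 1.38 times control in DSS (1.33 to 1.44) and the escort gene SCAP at 1.16 times (1.053 to 1.28), neither of them called. The genes of the proteases that cut SREBPs free were not called either. MBTPS1 had 178, 181 and 175 CPM in DSS+polydatin, DSS and control, with a DSS ratio to control of 1.03 (0.983 to 1.08). MBTPS2 had 78.8, 87.8 and 105 CPM in the same order, 0.836 times control in DSS (0.782 to 0.894) and 0.750 times in DSS+polydatin (0.7 to 0.805).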

How the data were processed

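Per the labels' protocols, RNA came from Trizol extraction and went into a VAHTS Universal V6 library kit. The submitters' processing notes name HISAT2 and GRCh38. For the counting program, annotation release and strand handling, the answer is not given in the sources used here. Deposited values are raw counts per Ensembl gene, not normalized by the authors. Symbols were matched for 60463 identifiers (99.7%). Gene positions, exon lengths and transcript GC content came from GENCODE release 29. Level per length divides CPM by the union of annotated exons.

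Counts were scaled with TMM factors of 1.046 for DSS+polydatin, 0.984 for DSS and 0.971 for control (edgeR 4.0.16, R 4.3.3), so a CPM of 1 was 17.4, 18.5 and 18.2 counts. Ratios and Clopper-Pearson intervals were computed for all genes with a CPM of at least 1 in a library (Python 3.11.15, scipy 1.17.1). The calculation was checked on counts simulated with counting error only and known library totals, as the intervals assume. That check says nothing on spread between cultures or error in the scaling. The labels name no molecular identifiers, and PCR copies then count as separate reads, an error that neither the intervals nor the 3-count floors include. Members and lists were chosen with earlier results of these data known. The naming rule asked for values of every member called in any comparison and of the most abundant member of each step (27 in all), and a range for the other 14. Those 14 were at 0.768 to 1.45 times control in DSS, 0.748 to 1.17 times DSS in DSS+polydatin and 0.718 to 1.49 times control in DSS+polydatin. Of the other pathway genes, up to 3 each way per comparison at a CPM of at least 5 in 1 of the 2 libraries were named, except for a result that is not reported here. Of the members, 18 share exon bases with another annotated gene, 8 of them with one of over 100 counts. The alternatives changed the scaling (library totals, or size factors from DESeq2 1.42.0), the filter (none, or a CPM of 10), the depth (thinning by sampling without replacement to that of the smallest library), the call (2-fold, or the interval alone), added 2 counts, or subtracted a spline on GC content and length fitted over 14699 genes (patsy 1.0.2). Figures were drawn with matplotlib 3.10.9.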

Additional observations from a re-analysis of the deposited data

How the results depend on the processing

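No called ratio changed sign under the 9 alternatives. Of the uncalled ratios, 20 did, counted once per alternative, 6 of them with an interval that excluded 1 as reported. Those were SREBF1 in both comparisons with control, FASN in DSS+polydatin against DSS, AGPAT2 in DSS+polydatin against control and AGPAT3 in DSS against control (0.10 to -0.04) after the GC and length correction, and ACLY in DSS+polydatin against DSS with total-count scaling (-0.04 to 0.05). The members' median log2 ratio stayed between 0.22 and 0.35 for DSS against control, 0.07 and 0.18 for DSS+polydatin against DSS, and 0.34 and 0.57 for DSS+polydatin against control. The threshold decided most counts. With a 2-fold rule, DSS against control had 3 members higher and 0 lower, and 6 other pathway genes higher and 1 lower, with 4.24% and 1.76% of all genes. DSS+polydatin against DSS then had 0 members higher, and 1 other gene higher and 0 lower, with 1.94% and 0.46% of all genes. DSS+polydatin against control had 7 members higher and 0 lower, and 9 other genes higher and 2 lower, with 8.53% and 3.27% of all genes. With the interval alone, members higher and lower were 26 and 8, 17 and 8, and 27 and 10 in the 3 comparisons in that order, and other genes 28 and 19, 12 and 26, and 26 and 30. Total-count scaling gave 2 members higher in DSS+polydatin against DSS, where 7.61% of all genes were. In DSS+polydatin against control it gave 20 members higher and 1 lower, with 19.9% and 8.33% of all genes. That scaling moved the median of all genes in the last comparison from -0.02 to 0.09 and the share of calls that were higher from 56.4% to 70.5%, and from 67.5% to 82.9% in DSS+polydatin against DSS. Thinning gave 2 members higher in DSS+polydatin against DSS, with 5.33% of all genes. A CPM of at least 10 left 2 other genes lower in DSS against control, with 4.34% of all genes. Removing the GC content and length trend left 9 members higher in DSS against control, with 7.79% of all genes, and 12 in DSS+polydatin against control, with 12.3%. It took away 10 member calls and added 5. In DSS+polydatin against control the added calls were ACACA and ACACB lower and ACSL1 and PLIN2 higher. In DSS against control the added call was ELOVL7 higher. DESeq2 size factors took away the calls of PPARA and ACLY in DSS against control. The cause was not tested. No paired analysis was possible because each group has 1 library, and for the same reason no replicate could be left out. ELOVL4, at 91 to 99 counts, had intervals that spanned 1 in each comparison.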
